A study of Mus musculus with 2 samples.

Results

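The 43 genes examined here make, modify and move the lipids of a stratified epithelial barrier: lipoxygenases, ceramide and fatty acid enzymes, transporters and acid lipases. They were taken from the 21628 entries of the deposited expression table by symbol, from a list with no threshold on expression that was drawn up with earlier results of these data known, and all 43 were found. RNAseq was carried out on SOX2-GFP lingual epithelial cells (genotype label Sox2GFP) of P0 mice, sorted by reporter brightness into 1 GFP-high and 1 GFP-low library. In this reporter strain GFP follows the transcription factor gene *Sox2*, which is bright in and around taste buds and dim in the basal cells of the non-taste epithelium. Cells of many pups were pooled, the brightness bins were cut from a continuum, and dead and autofluorescent cells were gated out. Both libraries carry the reporter, the study's mice were males and females of mixed backgrounds, and the sex of the pups sorted is not given in the sources used here. With 1 library per population no difference below has a replicate check, so no error or p-value is given.

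Stratified epithelia seal their surface with lipid. Differentiating keratinocytes build ceramides carrying very long fatty acids, convert part of them to glucosylceramide and sphingomyelin, load them with cholesterol into lamellar granules through the ABCA12 transporter, and release and trim them at the surface. A further set of enzymes hydroxylates the longest fatty acids, esterifies them with linoleate to acylceramides and oxidizes that linoleate through lipoxygenases, so that the lipid can be bound to the cornified cell. This system is best known from skin, and the keratinized tongue surface is a related stratified epithelium.

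Expression is given in FPKM, fragments normalized to transcript length and library size, which can be compared between genes. Ratios are between the FPKM of the 2 libraries, and where a pair of values is given without naming the populations, GFP-high comes first. A gene was counted as enriched here if it reached 5 FPKM where it was higher and differed by 1.5-fold or more. The methods of the study word the minimum as 5 FPKM in each sample, under which the 12 members counted below as enriched in GFP-high cells stay 12 and the 1 counted in GFP-low cells, *Scd1*, becomes 0. The labels give about 75M reads of 50 nt per library, from about 100000 cells each. The table rounds FPKM to 2 decimals and holds no read counts.

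Most lipid barrier genes were expressed in both populations and leaned toward the GFP-high cells. Of the 43, 36 reached 5 FPKM in at least 1 library, and 34 of the 42 not listed at 0 in both had the larger value in GFP-high cells, a share of 81.0% against 45.6% of all genes. Enrichment in GFP-high cells was found for 12 of the 43 (27.9%), where 4.72% of the 21590 genes with a number in both libraries met the same criteria. Set against genes that reached 5 FPKM in either library, the shares were 33.3% of the members and 9.48% of 10760 genes. *Scd1* alone was enriched in GFP-low cells (2.33% of the members), beside 4.44% of all genes and 8.9% of those reaching 5 FPKM. The median difference in log2(FPKM + 1), GFP-high minus GFP-low, was 0.34 over the members and −0.02 over all genes. Among the 6454 genes whose mean FPKM lay between the lower and upper quartiles of the members, 9.73 to 74.2 FPKM, the median was −0.05. A lean toward GFP-high cells was not particular to the lipid genes. The 8 pan-epithelial genes named below also had a median of 0.34, with 87.5% higher in GFP-high cells and 12.5% enriched there. The equal medians hold for the pseudocount of 1. With a pseudocount of 0.1 the median of the members was 0.45, and the median pan-epithelial ratio without a pseudocount was 0.34 in log2.

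**Figure D1:**
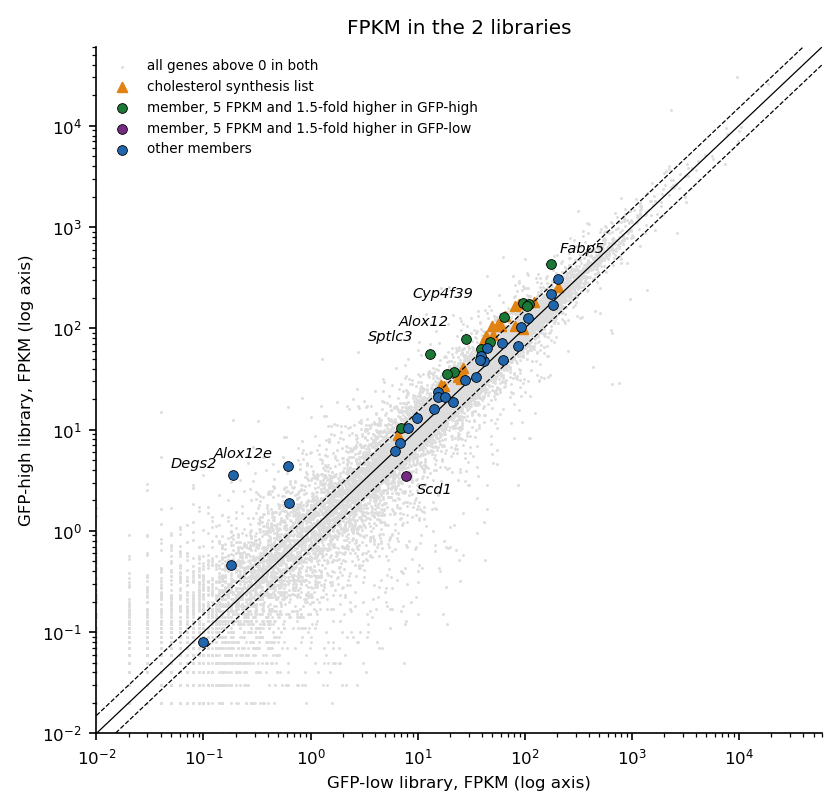
FPKM of each gene in the GFP-low library (x axis) and the GFP-high library (y axis), on log axes, with lines at equality and at 1.5-fold; *Elovl3* and *Lipn*, listed at 0, cannot be drawn. The 12 enriched members lie above the upper dashed line, *Scd1* lies below the lower one, and all 20 cholesterol synthesis genes lie above equality.

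The composition of the cell populations differed at the same time, and these values stand beside every difference below. Of 11 suprabasal keratinocyte markers, 10 were higher in GFP-high cells and 7 were enriched there, and their summed FPKM was 74327 against 33082. *Krt4* and *Krt13*, keratins of differentiating oral epithelium, stood at 14203 against 2323 FPKM and at 30523 against 9738 FPKM. *Krtdap*, also among the most abundant, differed less, at 25624 against 18788 FPKM (1.36-fold). All 7 basal keratinocyte markers leaned the other way, with a summed FPKM of 25796 against 32952. The 8 pan-epithelial genes (*Cdh1*, *Epcam*, *Dsp*, *Jup*, *Perp*, *Esrp1*, *Esrp2* and *Grhl2*) which mark the labelled tissue, were all above 5 FPKM in both libraries, with 7 of the 8 higher in GFP-high cells and a median ratio of 1.27. Connective tissue and glial RNA was more abundant in GFP-low cells: the summed FPKM of 8 fibroblast markers was 430.1 against 1835 and that of 7 Schwann lineage markers 111 against 399. The part that this shift had in the lipid genes was not tested, and in bulk RNA fewer cells of a type and less RNA per cell cannot be told apart. A direct comparison can still be made with the pan-epithelial genes themselves. When the GFP-low values were raised by their median ratio of 1.27, every log2 ratio without a pseudocount fell by 0.34. Differences in log2(FPKM + 1) fell by less where FPKM was low. With this scaling 4 members remained enriched in GFP-high cells (*Sptlc3*, *Alox12*, *Fabp5* and *Cyp4f39*). The other 8 fell under 1.5-fold, and *Cers2* and *Cers5* joined *Scd1* as enriched in GFP-low cells.

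**Figure D2:**
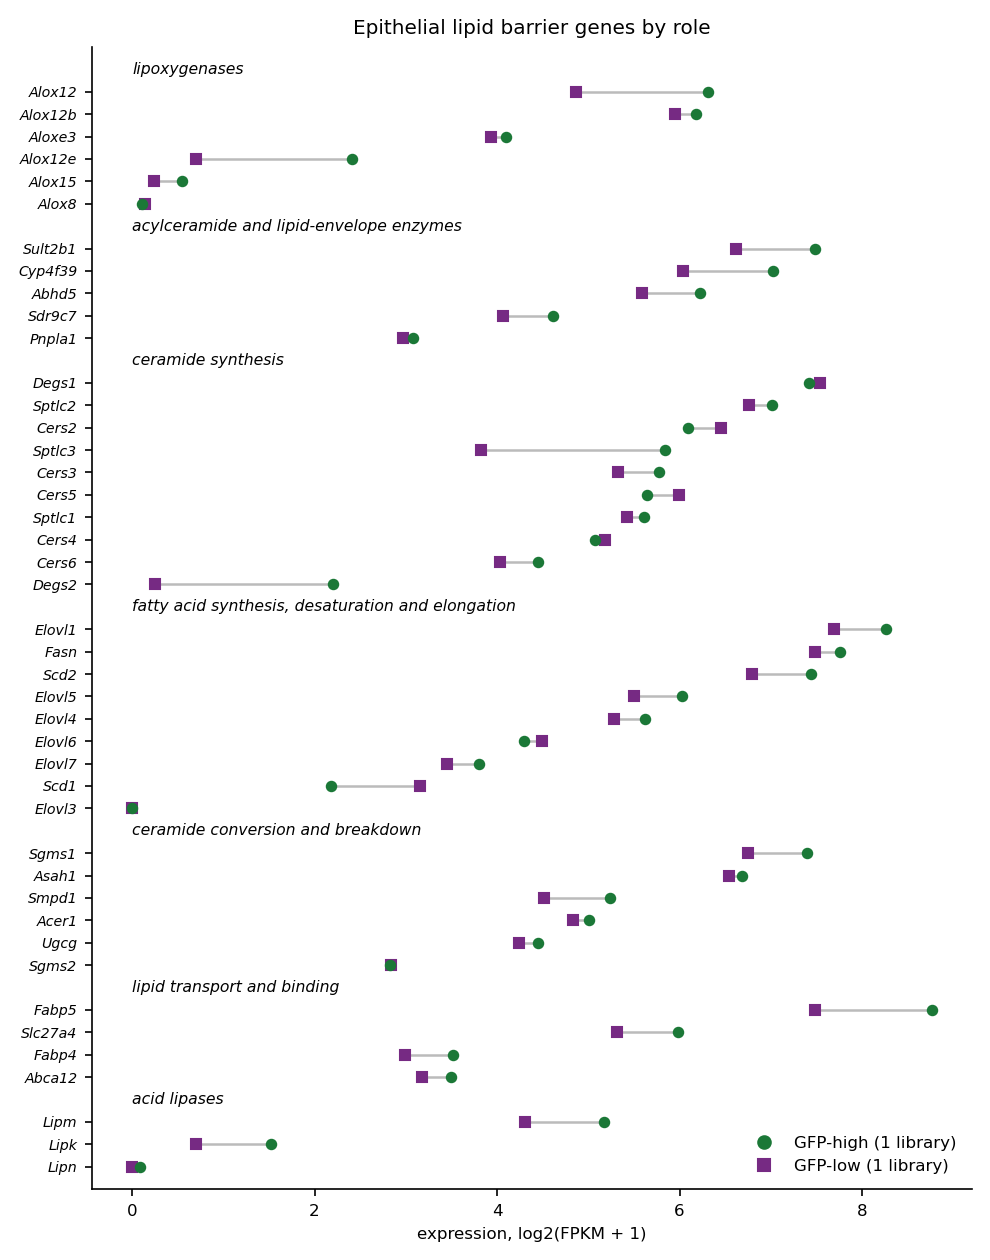
Level of each of the 43 genes, as log2(FPKM + 1), in the GFP-high library (circles) and the GFP-low library (squares), grouped by role and ordered by GFP-high level. Long connecting lines mark *Sptlc3*, *Degs2*, *Alox12*, *Alox12e*, *Fabp5* and *Cyp4f39* with circles to the right, and *Scd1* with the circle to the left.

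Ceramide synthesis starts with serine palmitoyltransferase, and here the catalytic subunits diverged. The enzyme pairs the common subunit SPTLC1 with either SPTLC2 or SPTLC3. *Sptlc3* (ENSMUSG00000039092, chromosome 2, 139493913–139637674) stood at 56.1 FPKM in GFP-high and 13.2 FPKM in GFP-low cells, 4.25-fold higher and the largest ratio among members at 5 FPKM or more. *Sptlc2* stood at 128 and 108 FPKM, and *Sptlc1* at 47.8 and 42.0 FPKM, neither of which reached 1.5-fold. *Sptlc3* therefore made up 30.5% against 10.9% of the summed FPKM of the catalytic subunits, a proportion that does not depend on how the libraries are scaled.

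The promoters of the subunit genes are shown because the genes serve 1 enzyme and differed in enrichment. The windows run from 250 bases before to 50 bases after the annotated start in RefSeq (GRCm38.p6), and 34 of the 43 genes matched an entry. Capitals mark the letters CATTGT on either strand, the core bound by SOX proteins, the family of the gene on which the cells were sorted.
Sptlc3, chr2:139493663-139493962, plus strand: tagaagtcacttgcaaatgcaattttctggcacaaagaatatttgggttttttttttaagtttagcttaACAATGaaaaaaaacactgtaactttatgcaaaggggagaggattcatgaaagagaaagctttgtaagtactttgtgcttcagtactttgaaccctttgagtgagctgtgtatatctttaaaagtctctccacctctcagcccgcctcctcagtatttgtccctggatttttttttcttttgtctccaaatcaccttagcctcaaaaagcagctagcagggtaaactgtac
Sptlc2, chr12:87388306-87388605, minus strand: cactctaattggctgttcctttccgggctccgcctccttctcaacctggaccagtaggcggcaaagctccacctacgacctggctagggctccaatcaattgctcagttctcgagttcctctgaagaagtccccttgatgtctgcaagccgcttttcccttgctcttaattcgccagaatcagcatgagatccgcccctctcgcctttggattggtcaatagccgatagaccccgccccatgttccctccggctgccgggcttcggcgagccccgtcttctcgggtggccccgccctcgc
Sptlc1, chr13:53377312-53377611, minus strand: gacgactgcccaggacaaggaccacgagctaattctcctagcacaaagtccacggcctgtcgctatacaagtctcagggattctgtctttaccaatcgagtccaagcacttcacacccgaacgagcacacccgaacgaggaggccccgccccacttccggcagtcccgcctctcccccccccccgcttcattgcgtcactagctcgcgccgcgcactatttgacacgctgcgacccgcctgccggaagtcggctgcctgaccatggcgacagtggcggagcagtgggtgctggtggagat
The *Sptlc3* window holds 37.3% G and C and 1 CpG, with the SOX letters on the minus strand at −181. The *Sptlc2* and *Sptlc1* windows hold 59.3% and 62.3% G and C, 19 and 25 CpG, and none of the letters. These letters occur in 12.6% of all 32851 promoter windows and in 6 of the 45 windows of the members (13.3%), so their presence in *Sptlc3* is a description only.

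The next enzymes of the pathway, the ceramide synthases, changed in proportion more than in sum. CERS3 makes the ultra-long-chain ceramides of the epidermal barrier, and *Cers3* was at 53.8 FPKM in GFP-high and 39.2 FPKM in GFP-low cells (1.37-fold). *Cers6*, whose enzyme makes ceramides with shorter chains, was at 20.9 and 15.4 FPKM (1.36-fold). The more widely expressed *Cers2* and *Cers5* pointed the opposite way, with 67.2 against 86.5 FPKM and 49.1 against 62.5 FPKM, and *Cers4* was nearly even at 32.7 and 35.4 FPKM. None of these reached 1.5-fold. Summed over the 5 genes the FPKM was 224 and 239, while the share of *Cers3* was 24.0% against 16.4% and that of *Cers2* 30.0% and 36.2%.

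Dihydroceramide desaturation, which completes ceramide, rested on *Degs1*, at 171 FPKM in GFP-high and 185 FPKM in GFP-low cells. *Degs2*, whose enzyme can also hydroxylate the base to give phytoceramides, had the largest ratio of the members above 0 in both libraries, at a low level, 3.59 FPKM against 0.19 FPKM (18.9-fold). Read from the annotated exon length and the stated depth, the GFP-low value of *Degs2* stands for at most about 37 reads and the GFP-high value for at most about 695. Its exons overlap those of *Evl*, a gene on the opposite strand at 82.7 and 90.5 FPKM, and 9.05% of its 50-nt windows are shared. It stayed under the 5 FPKM minimum and made up 2.06% of desaturase FPKM in GFP-high cells. Over the 10 genes of ceramide synthesis, 6 were higher in GFP-high cells and the median log2 difference was 0.21. Of the 9 that reached 5 FPKM, 1 was enriched there, near the 9.48% of all genes at that level.

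**Figure D3:**
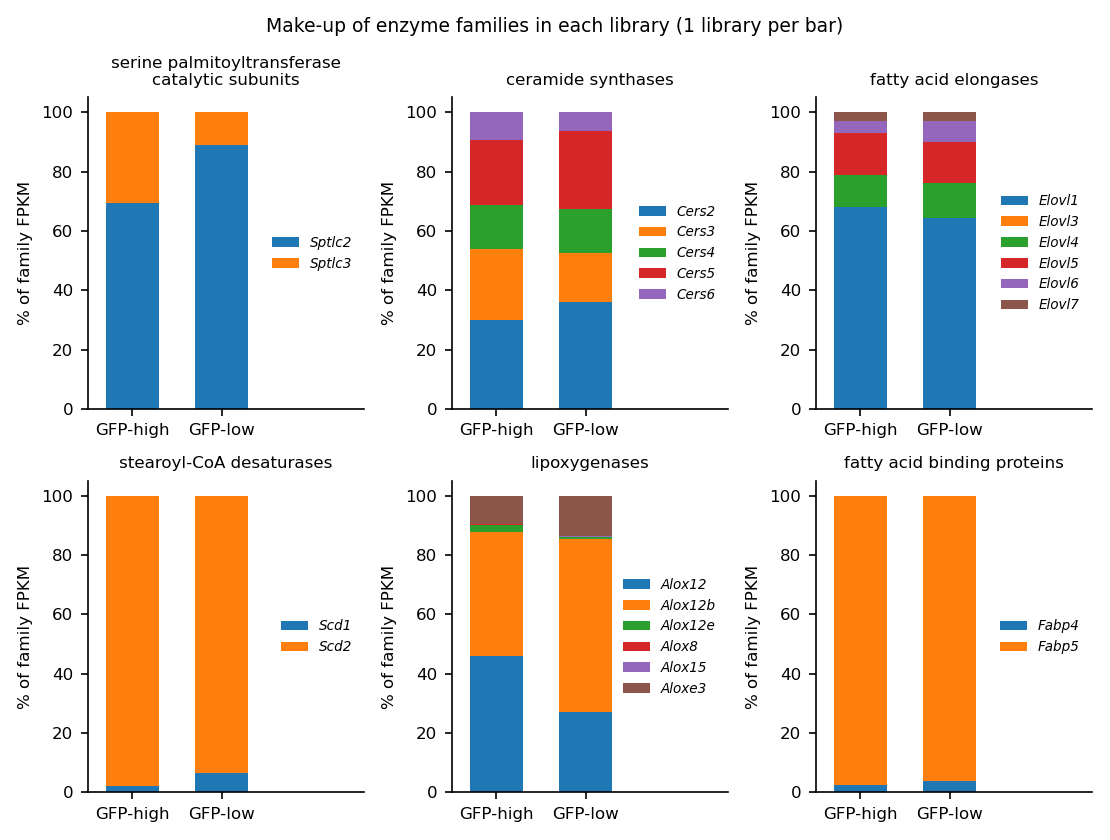
Share of each gene in the summed FPKM of its enzyme family (y axis, percent) in the GFP-high and GFP-low libraries, 1 bar per library. *Sptlc3* takes 30.5% against 10.9%, *Alox12* 45.9% against 27.0% and *Scd1* 2.0% against 6.71%, while *Elovl1* takes 68.0% against 64.3% and *Fabp5* 97.6% against 96.2%.

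Fatty acid synthesis and elongation genes were abundant in both populations and mostly moderately higher in GFP-high cells. *Fasn*, the fatty acid synthase, was at 216 and 178 FPKM (1.22-fold). Among the elongases *Elovl1*, which extends saturated very long chains, held the highest level at 306 FPKM in GFP-high and 205 FPKM in GFP-low cells, just under the threshold at 1.49-fold. *Elovl4*, the elongase of the ultra-long chains found in acylceramide, was at 48.2 and 38.0 FPKM (1.27-fold). The remaining elongases differed in direction. *Elovl5*, which elongates polyunsaturated chains, was at 64.0 and 44.4 FPKM and *Elovl7* at 12.9 and 9.97 FPKM, whereas *Elovl6*, which acts on C16 chains, was at 18.7 and 21.5 FPKM. *Elovl3*, an elongase best known from sebaceous glands and brown fat, is listed at 0 in both. Of the summed elongase FPKM, *Elovl1* contributed 68.0% and 64.3%.

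The stearoyl-CoA desaturases, which place the double bond in monounsaturated fatty acids, were split between the populations. *Scd2* (chromosome 19, 44293674–44306864) was at 172 FPKM in GFP-high and 110 FPKM in GFP-low cells and was enriched 1.57-fold. *Scd1* (chromosome 19, 44394455–44407879) was at 3.52 and 7.88 FPKM, 2.24-fold higher in GFP-low cells. The genes lie on opposite strands within 114 kb, and *Scd4*, located between them, was at 0.43 and 0.42 FPKM. *Scd1* and *Scd2* share few 50-nt windows with other transcripts (4.56% and 3.97%), and *Scd2* accounted for 98.0% and 93.3% of their summed FPKM. The direction of *Scd1* was the same under every scaling tried, but it did not reach 5 FPKM in GFP-high cells and so is not enriched by the wording of the study's methods.

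The acylceramide and lipid-envelope enzymes had one of the more uniform leanings toward GFP-high cells, with all 5 higher there, 3 of them enriched and a median log2 difference of 0.64. *Cyp4f39*, the cytochrome that hydroxylates the end of ultra-long fatty acids, was at 129 FPKM in GFP-high and 64.5 FPKM in GFP-low cells (1.996-fold). *Sult2b1*, which sulfates cholesterol, was at 178 and 97.1 FPKM (1.84-fold). *Abhd5*, the lipase co-activator that assists acylceramide formation, was at 74.0 and 47.0 FPKM (1.57-fold). The genes on either side of these in the pathway moved less. *Sdr9c7*, a dehydrogenase acting on the oxidized lipid, was at 23.5 and 15.7 FPKM, with a ratio of 1.499 that fell just short of the criterion. *Pnpla1*, which transfers linoleate to make acylceramide, was at 7.45 and 6.85 FPKM (1.09-fold). In *Abhd5* and *Pnpla1*, 15.1% and 13.4% of 50-nt windows also occur in an antisense transcript, and whether the strand was used in quantification is not given in the sources used here.

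The lipoxygenases differed strongly from one another. *Alox12* (ENSMUSG00000000320, chromosome 11, 70241457–70255353), the platelet-type 12S-lipoxygenase that is also expressed in epidermis, was at 78.7 FPKM in GFP-high and 28.1 FPKM in GFP-low cells, 2.80-fold higher. The barrier lipoxygenases proper were nearly level: *Alox12b*, which acts first on acylceramide linoleate, was at 71.7 and 61.0 FPKM (1.18-fold), and *Aloxe3*, which converts its product, was at 16.1 and 14.3 FPKM (1.13-fold). The order of the first of these and *Alox12* thus changed between populations, with *Alox12* at 45.9% of lipoxygenase FPKM in GFP-high cells and *Alox12b* at 58.5% in GFP-low cells. *Alox12e*, the epidermis-type enzyme, was at 4.33 and 0.62 FPKM (6.98-fold), under the minimum. *Alox15* at 0.46 and 0.18 FPKM and *Alox8* at 0.08 and 0.10 FPKM were close to absent, the latter standing for at most about 21 and 27 reads.

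The lipoxygenase genes form 2 clusters on chromosome 11, and their ratios differed between the clusters. *Aloxe3*, *Alox12b* and *Alox8* lie within 71.9 kb (69125896–69197843), with ratios of 1.13, 1.18 and 0.80, the last from 0.08 and 0.1 FPKM. *Alox12*, *Alox12e* and *Alox15* lie within 111 kb (70241457–70352031), with ratios of 2.80, 6.98 and 2.56, with *Alox12* alone at 5 FPKM or more. At that level the contrast between clusters therefore rests on *Alox12* against *Aloxe3* and *Alox12b*. No other gene analysed lies inside either interval. Neighbouring lipoxygenase genes share almost no 50-nt windows (at most 1.79% with any other gene). Platelet markers, relevant because *Alox12* is abundant in platelets, did not share 1 direction: *Pf4* was at 1.54 and 2.6 FPKM and *Ppbp* at 0.46 and 0.53 FPKM, *Gp9* is listed at 0, and *Itga2b* (57.7 and 36.6 FPKM) and *Gp1bb* (10.04 and 5.54 FPKM) were enriched in GFP-high cells. Their part in the *Alox12* value was not tested.

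The promoters of the leading gene of each cluster are given because both genes were expressed at similar levels in GFP-high cells and only *Alox12* was enriched. Neither window holds any of the 5 motifs searched.
Alox12, chr11:70255321-70255620, minus strand: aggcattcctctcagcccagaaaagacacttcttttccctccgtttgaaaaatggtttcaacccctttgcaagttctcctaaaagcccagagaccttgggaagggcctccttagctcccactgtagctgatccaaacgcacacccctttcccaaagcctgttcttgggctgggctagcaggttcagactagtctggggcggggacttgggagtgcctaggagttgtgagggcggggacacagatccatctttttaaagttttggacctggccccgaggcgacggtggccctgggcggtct
Alox12b, chr11:69156822-69157121, plus strand: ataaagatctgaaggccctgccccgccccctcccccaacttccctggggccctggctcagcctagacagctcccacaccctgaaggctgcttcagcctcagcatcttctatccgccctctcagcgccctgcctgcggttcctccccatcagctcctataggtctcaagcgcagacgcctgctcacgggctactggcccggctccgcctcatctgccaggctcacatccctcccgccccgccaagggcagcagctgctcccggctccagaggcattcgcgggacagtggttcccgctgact
The *Alox12* window holds 55.3% G and C and the *Alox12b* window 66.0%, compared with a median of 52.7% over all promoter windows and 59.3% over those of the members.

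Genes that convert or break down ceramide were higher in GFP-high cells in 5 of 6 cases, and 2 were enriched. *Sgms1*, the Golgi sphingomyelin synthase, was at 168 and 106 FPKM (1.58-fold), while *Sgms2*, its plasma membrane counterpart, was even at 6.09 and 6.17 FPKM. *Smpd1*, the acid sphingomyelinase that turns secreted sphingomyelin back to ceramide, was at 36.8 and 21.8 FPKM (1.69-fold). The others varied little. *Ugcg*, which makes glucosylceramide, was at 20.9 and 17.9 FPKM (1.17-fold), and the ceramidase genes *Asah1* and *Acer1* were at 102 against 92.1 FPKM and 31.2 against 27.5 FPKM, ratios of 1.11 and 1.13.

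Lipid transport and binding held the member with the highest level in GFP-high cells. *Fabp5* (ENSMUSG00000027533, chromosome 3, 10012548–10016607), the epidermal fatty acid binding protein, was at 434 FPKM in GFP-high and 178 FPKM in GFP-low cells, 2.44-fold higher. In GFP-low cells *Elovl1* and *Degs1* exceeded it. *Slc27a4*, the fatty acid transporter FATP4, was at 62.3 and 38.9 FPKM (1.6-fold), and *Abca12*, the lamellar granule transporter, was at 10.3 and 8.06 FPKM (1.27-fold) without being enriched. *Fabp4* was at 10.5 and 6.95 FPKM, a ratio of 1.505 that passed the criterion by the least margin and fell below it with any pseudocount tried. FABP4 is the adipocyte form and is also made by capillary endothelium. No adipocyte marker reached 5 FPKM, and the sum over 8 markers was 2.75 and 3.39 FPKM. Most of it was *Lpl*, at 2.43 and 3.3 FPKM. The others were at or near 0 in both libraries, with *Adipoq* at 0.17 and 0.06 FPKM and *Cidec* and *Lep* at 0. Of 8 endothelial markers, 7 had more in GFP-high cells, including *Pecam1* at 5.31 and 2.38 FPKM, with a sum of 36.6 and 26.0 FPKM, and their part in the *Fabp4* value was not tested.

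Among the acid lipases, which act late in keratinocyte differentiation, only *Lipm* was substantially expressed. It was at 35.02 FPKM in GFP-high and 18.8 FPKM in GFP-low cells (1.86-fold). Its neighbours in a 114-kb cluster on chromosome 19 were low, with *Lipk* at 1.87 and 0.63 FPKM and *Lipn* at 0.06 FPKM in GFP-high cells and listed at 0 in GFP-low cells. The FPKM of *Lipm* is uncertain, because 33.1% of its 50-nt windows also occur in *Ankrd22*, which overlaps 1219 nt of its exons on the opposite strand and was at 57.9 and 45.2 FPKM (1.28-fold). The *Lipm* promoter is shown because, alone among the 45 member windows, it holds letters of both the FOX and the SOX families: in capitals, TGTTTAC, bound by FOX factors, at −22 and the SOX letters CATTGT at +22.
Lipm, chr19:34100693-34100992, plus strand: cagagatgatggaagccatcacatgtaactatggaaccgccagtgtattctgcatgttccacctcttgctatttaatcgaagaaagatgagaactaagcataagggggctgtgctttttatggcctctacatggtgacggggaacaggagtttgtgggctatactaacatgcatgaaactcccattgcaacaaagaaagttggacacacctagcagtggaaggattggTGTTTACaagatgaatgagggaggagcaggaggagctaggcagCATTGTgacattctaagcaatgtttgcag
The FOX letters occur in 3.65% of all windows and in 3 of the 45 member windows, those of *Elovl6*, *Sgms2* and *Lipm*. The grainyhead letters AACCGGTT occur in 0.146% of all windows and in 1 of the members', upstream of an alternative start of *Sgms1*. No member window holds the sterol response letters TCACNCCAC (1.24% of all windows) or the PPAR element, a direct repeat searched as an exact match (0.0396%).

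Among the lists of other lipid genes, cholesterol synthesis, which supplies a further lipid class of the barrier, was the one with every gene higher in GFP-high cells. All 20 genes were at 5 FPKM or more in both libraries, and 12 were enriched there, with a median log2 difference of 0.66. *Dhcr7*, which performs the last step of one branch, was at 106 and 49.8 FPKM (2.14-fold), and *Mvk*, the mevalonate kinase, was at 168 and 80.7 FPKM (2.08-fold). *Sqle*, the squalene epoxidase, was at 111 and 56.4 FPKM (1.97-fold). Enriched genes also included *Msmo1*, *Fdps*, *Pmvk*, *Cyp51*, *Mvd*, *Sc5d* and *Fdft1*, with ratios from 1.94 down to 1.51. The highest level was that of *Hmgcs1*, at 255 and 206 FPKM, which was under 1.5-fold.

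Of 15 regulators of lipid genes, 3 were enriched in GFP-high cells and none in GFP-low cells. *Ppara*, a nuclear receptor for fatty acids, was at 6.72 and 2.17 FPKM (3.10-fold). *Insig1*, the sterol-dependent brake on SREBP processing, was at 46.8 and 22.1 FPKM (2.12-fold), and *Grhl3*, a grainyhead factor of barrier formation, was at 168 and 88.6 FPKM (1.90-fold). The SREBP genes differed less, with *Srebf1* at 250 and 211 FPKM and *Srebf2* at 130 and 110 FPKM, both at 1.19-fold. *Nr1h2*, the LXR-beta gene and the most abundant of the list in GFP-low cells, was at 206 and 286 FPKM.

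A list of 30 further ceramide and acyl lipid genes showed no common leaning: 15 were higher in each population and the median log2 difference was −0.01. In GFP-high cells 3 of them were enriched, among them genes that act beside members named above. *Ephx3*, an epoxide hydrolase of the lipoxygenase branch, was at 46.5 and 18.9 FPKM (2.46-fold), and *Sptssb*, a small subunit of serine palmitoyltransferase, at 48.9 and 29.6 FPKM (1.65-fold). *Ormdl3*, an inhibitor of that enzyme, was enriched in GFP-low cells at 50.3 against 79.2 FPKM, as was *B4galt5*, a lactosylceramide synthase, at 7.36 against 13.7 FPKM. *Psap*, the saposin precursor, had the highest level of the list at 588 and 405 FPKM (1.45-fold).

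**Figure D4:**
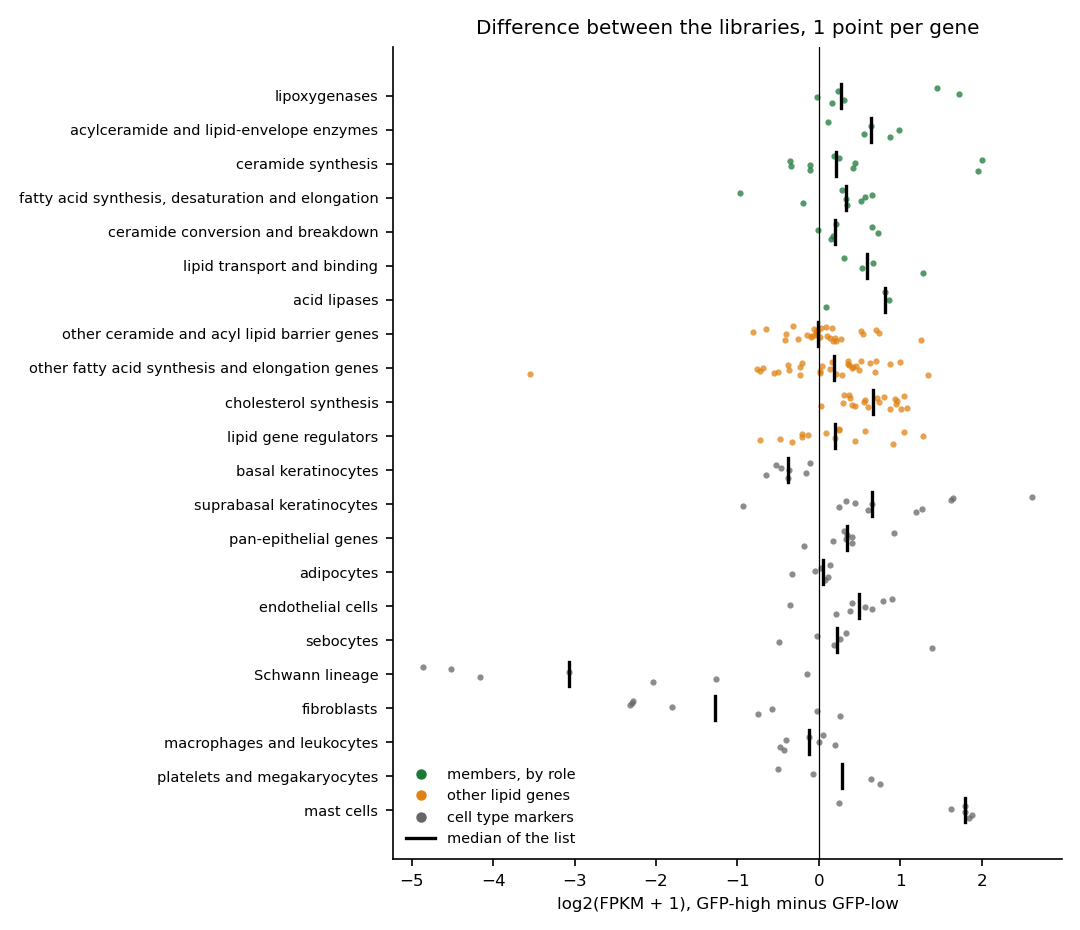
Difference in log2(FPKM + 1) between the GFP-high and GFP-low libraries (x axis), 1 point per gene, for the members by role (green), other lipid genes (orange) and cell type markers (grey); black bars are list medians, without genes at 0 in both. Cholesterol synthesis has a median of 0.66 and suprabasal keratinocytes 0.65, while fibroblasts (−1.28) and the Schwann lineage (−3.07) lie far to the left.

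The scaling of the libraries bears on many of these counts, since 9 of the 12 enriched members were under 2-fold. Rescaled to TPM, in which the values of a library add up to the same total, 7 of the 12 remained enriched, and *Abhd5*, *Scd2*, *Sgms1*, *Slc27a4* and *Fabp4* fell below 1.5-fold. *Sptlc3*, *Alox12*, *Fabp5* and *Cyp4f39* were enriched under every scaling and pseudocount tried, and the first 3 of these also passed 2-fold as deposited.

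**Figure D5:**
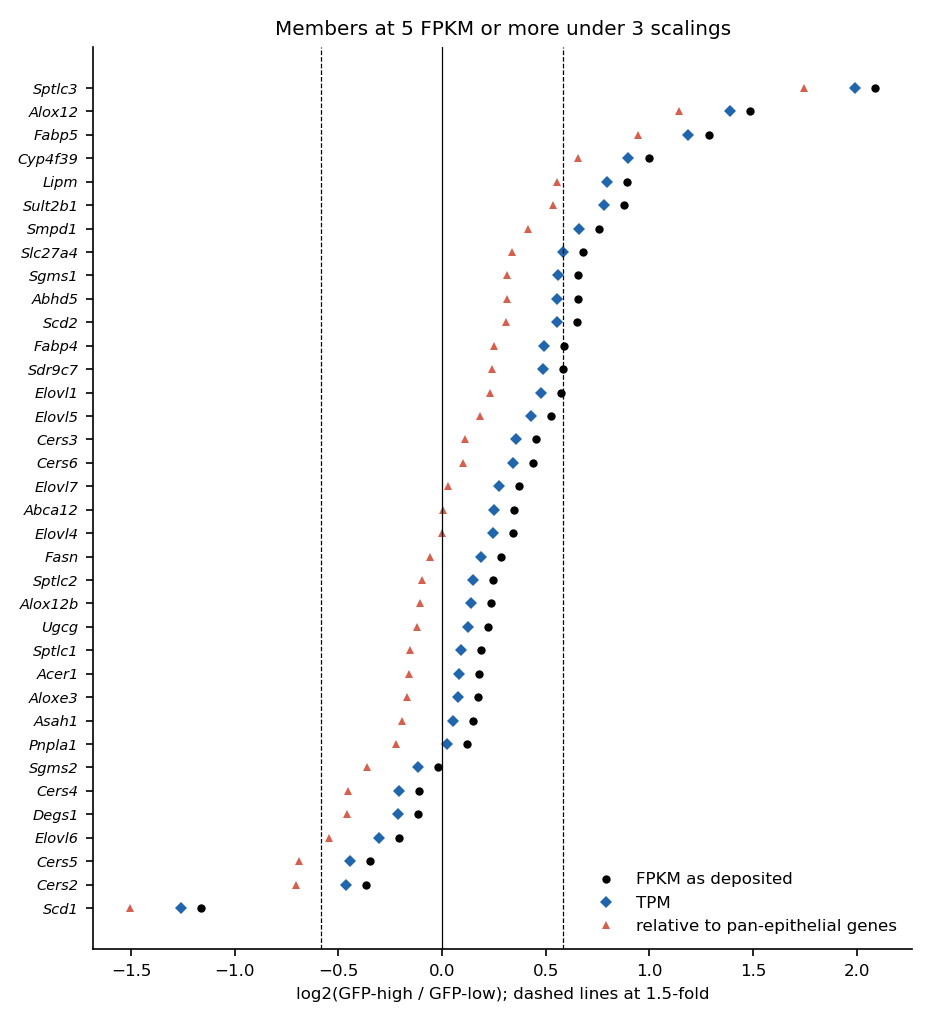
Log2 ratio between GFP-high and GFP-low (x axis) of the 36 members that reached 5 FPKM in either library, from FPKM as deposited (circles), TPM (diamonds) and with GFP-low raised by the pan-epithelial ratio (triangles). *Sptlc3*, *Alox12*, *Fabp5* and *Cyp4f39* lie beyond the right dashed line in all 3, and *Scd1* beyond the left one.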

How the data were processed

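RNA of sorted cells was sequenced as stranded mRNA libraries with single-end reads of 50 nt. The authors trimmed reads with Trimmomatic 0.36, aligned them to mm10 with GSNAP, computed FPKM with Cufflinks 2.2.1 and deposited 1 FPKM column per population, named a mean although the labels give 1 library each. A further column holds the authors' fold between populations and was not used.

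Entries that GENCODE M21 (GRCm38, as mm10) types as other than protein-coding (21) or that lack a number in a population (17) were left out. Ratios use FPKM without a pseudocount, and list medians use log2(FPKM + 1). The members, gene lists and motifs were chosen with earlier results of these data known. Named genes are all members, pathway genes that were enriched or highest in their list, up to 4 marker genes per list by FPKM, and genes between members; the full pan-epithelial list, *Srebf2*, *Nr1h2*, *Sox10*, *Ptprc*, the markers listed at 0, *Evl* and *Ankrd22* were singled out after their values were seen. Some genes of the lists are counted but not reported here by name. Shared 50-nt windows were counted over all GENCODE transcripts on either strand: 20 of 43 members shared none and 1, *Lipm*, shared over 20%. Read numbers are upper limits from full exon length and the stated depth. Promoters are those of RefSeq, and motifs were searched on both strands. Alternatives were other minimums, pseudocounts and scalings. Python 3.11.15, pandas 2.3.3 and matplotlib 3.10.9 were used.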

Additional observations from a re-analysis of the deposited data

How the results depend on the processing

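With 1 library per population, no replicate could be left out, and no paired analysis was possible because each population has a single sample. The 12 members enriched in GFP-high cells became 3 at a 2-fold minimum, 7 on the TPM scale and 4 with GFP-low raised by the pan-epithelial ratio, and lay between 11 and 17 under the other settings. The lone GFP-low member, *Scd1*, gave counts of 0 with 5 FPKM required in both populations and 0 at a minimum of 10 FPKM, and the count was 3 under the pan-epithelial scaling. The median difference in log2(FPKM + 1) of 0.34 was 0.45 with a pseudocount of 0.1 and 0.089 under the pan-epithelial scaling. The last value was computed with a pseudocount of 1 only, with which that scaling moves genes at low FPKM less than others. Other pseudocounts were not tried with it. No enriched member changed direction under any scaling or pseudocount. Without *Lipm*, the member sharing over 20% of its windows, the median was 0.33. For members at or under 1 FPKM the small number of reads limits the ratio.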

Other observations

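Of 33 further genes of fatty acid synthesis, activation, uptake and storage, 4 were enriched in each population. In GFP-high cells these were *Dgat2*, which makes triglyceride (133 and 52.1 FPKM, 2.56-fold), and 3 acyl-CoA synthetase genes, *Acsl1* (213 and 106 FPKM), *Acsbg1* (256 and 139 FPKM) and *Acsl4* (21.2 and 13.4 FPKM), with ratios from 2.01 to 1.59. In GFP-low cells they were the polyunsaturated fatty acid desaturase genes *Fads1* (25.3 and 41.3 FPKM, 1.64-fold higher in GFP-low) and *Fads2* (31.1 and 53.4 FPKM, 1.72-fold), the transporter gene *Slc27a1* (38.5 and 64.1 FPKM, 1.66-fold) and *Fabp7*, a binding protein of glial precursors (0.43 and 15.7 FPKM, 36.6-fold). The Schwann lineage marker *Sox10* (0.51 and 42.7 FPKM) moved with *Fabp7*, and its part in that value was not tested. The highest level of the list was that of *Tecr*, an enzyme of the elongation cycle, at 281 and 273 FPKM.

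Further marker lists were read beside the lipid genes. Of 6 sebocyte markers, 4 were higher in GFP-high cells, and *Far2* (6.31 and 1.78 FPKM) was the one enriched. All 6 mast cell markers were higher in GFP-high cells, with a summed FPKM of 63.6 against 31.9 and a median log2 difference of 1.79. Much of the sum was *Kit*, at 31.4 and 26.2 FPKM. The 3 enriched markers were *Tpsb2* (10.65 and 2.35 FPKM), *Mcpt4* (7.11 and 1.2 FPKM) and *Cpa3* (5.89 and 0.99 FPKM). The 7 macrophage and leukocyte markers summed to 19.5 and 21.98 FPKM, with *Ptprc* at 0.06 and 0.02 FPKM. These values stand beside the low levels of *Alox15*, and their part in it was not tested.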
